A study of Gallus gallus with 6 samples.

Results

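The genes described here belong to the prostaglandin and leukotriene pathway, which turns membrane arachidonic acid into short-range lipid signals. Of the 10 genes chosen by name for their roles in synthesis, breakdown and reception of these lipids, 9 were found by symbol among the 27656 genes of the deposited table. They are PTGS1, PTGS2, PTGES, HPGDS, HPGD, ALOX5AP, LTA4H, PTGER2 and PTGER4, and all 9 passed the filter on low counts. No row carried the symbol ALOX5, so that gene was not analysed here. The libraries came from ileal cells of broiler chickens, sorted as macrophages with KUL01, an antibody that binds a chicken mannose receptor. Birds of both groups had been given an injection of LPS, the endotoxin of Gram-negative bacteria, which sets off inflammation. In the LPS+LR21 group (3 libraries) they also received Lactobacillus reuteri by gavage, and in the LPS group (3 libraries) they did not. There is no uninjected group here, and the labels give neither the age of the birds nor the number of birds behind a library.

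As background, the cyclooxygenases PTGS1 and PTGS2 convert arachidonic acid to prostaglandin H2, from which, by their roles in mammals, PTGES makes prostaglandin E2 and HPGDS makes prostaglandin D2, while HPGD oxidises and so inactivates prostaglandins. On the leukotriene side, ALOX5AP presents arachidonic acid to the lipoxygenase ALOX5, and LTA4H converts leukotriene A4 to the neutrophil attractant leukotriene B4. PTGER2 and PTGER4 are receptors for prostaglandin E2 that raise cyclic AMP. In the mammalian gut, prostaglandin E2 is known for effects on macrophage cytokine output and on epithelial repair, and HPGD is abundant in differentiated epithelium.

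Total counts were 31284679 to 45492503 in the LPS+LR21 libraries (LR1_2, LR3 and LR4, named by their columns) and 38492909 to 44786499 in the LPS libraries (LPS1, LPS2 and LPS3). The 25 macrophage markers in the table summed to 5134 to 11105 FPKM in the LPS+LR21 libraries and 14429 to 19011 FPKM in the LPS libraries, where FPKM is fragments per kilobase of gene, scaled to the total count of the library. None of them was at 0 in every library. The 28 epithelial markers summed to 2222 to 9344 FPKM in the LPS+LR21 libraries and 654 to 1116 FPKM in the LPS libraries. Thus macrophage transcripts were present in each library, and epithelial transcripts stood beside them. LR3 lay nearest to the LPS libraries on both sums. In bulk samples, fewer cells of a type and less RNA per cell cannot be told apart.

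In the LPS+LR21 libraries HPGD and HPGDS rose, and the other 7 genes did not pass the test. HPGD, which inactivates prostaglandins, averaged 345 ± 150 FPKM in LPS+LR21 and 51.5 ± 17.7 FPKM in LPS (SD, n = 3 each). HPGDS, which makes prostaglandin D2, averaged 67.2 ± 43.4 FPKM in LPS+LR21 and 7.30 ± 2.73 FPKM in LPS. LTA4H, ALOX5AP and PTGS1 were lower in each LPS+LR21 library than in any LPS library, without passing. Over all 20745 genes tested 1.06% were called in either direction and 0.974% were called higher (edgeR's quasi-likelihood test, Benjamini-Hochberg adjusted p under 0.05), and 0.0819% were called lower. The groups did not overlap for 19.4% of genes, 12.3% with LPS+LR21 above and 7.10% below. Among the 9 genes the groups did not overlap for 5, with 2 above and 3 below. The median log2 fold change was -0.50 over the 9 genes and -0.14 over all tested genes.

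**Figure D1:**
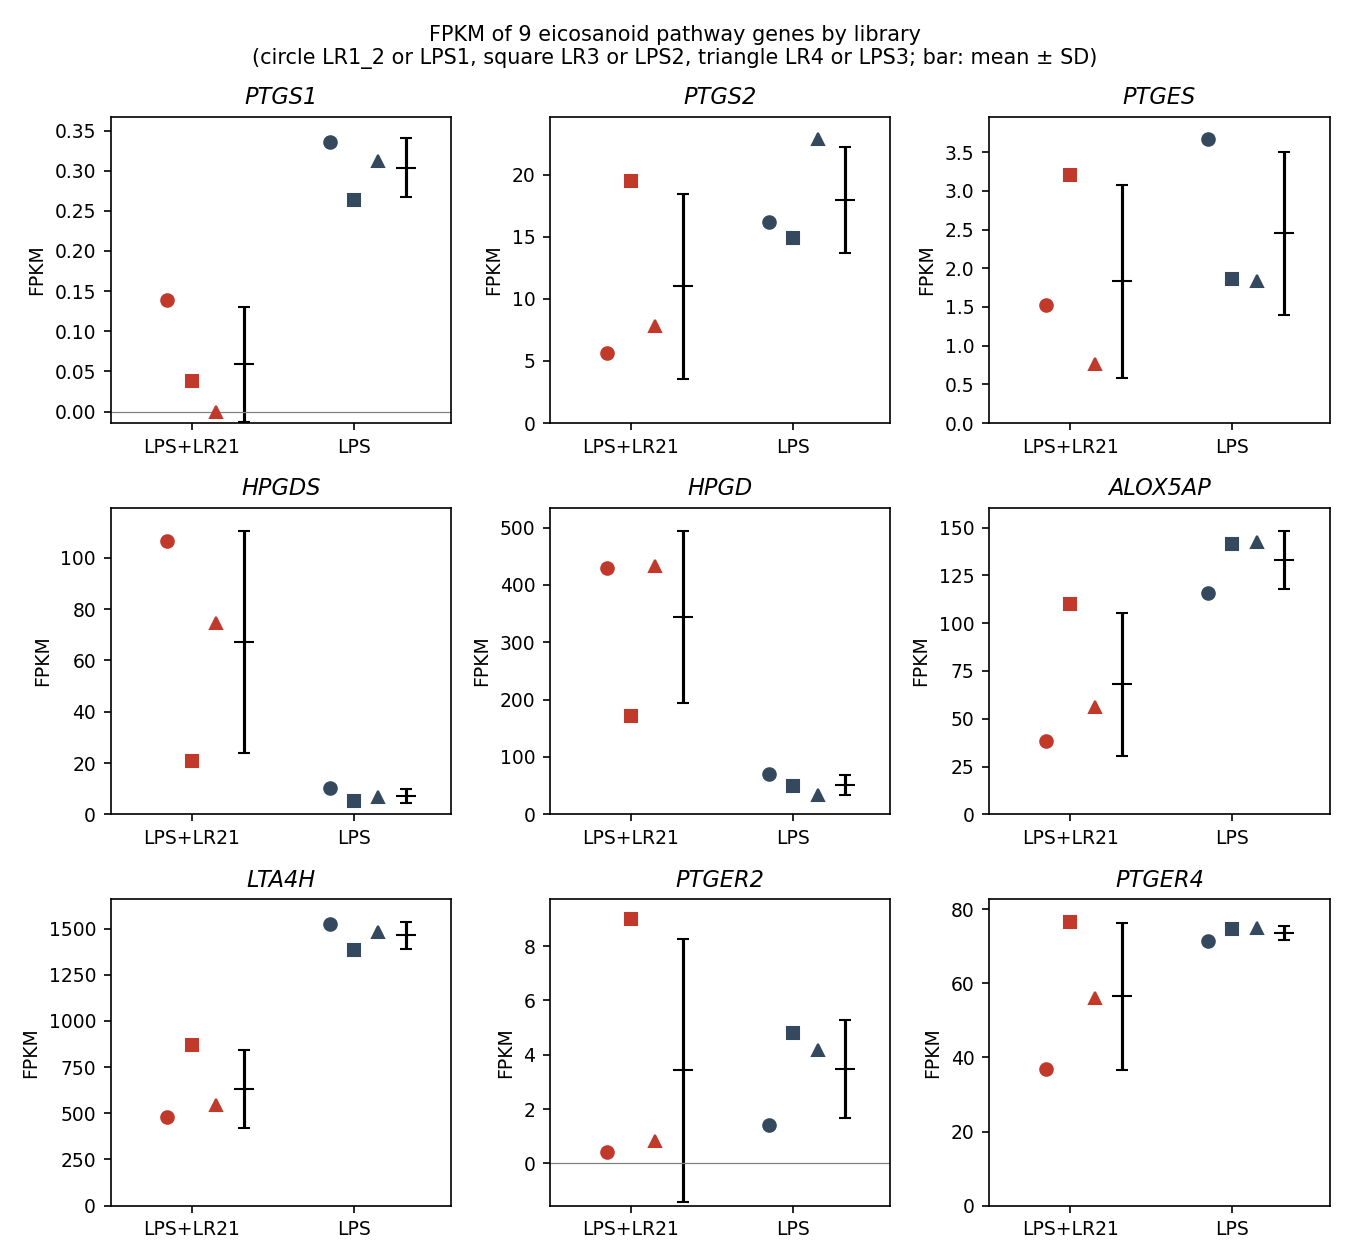
FPKM of the 9 genes in each library, with LPS+LR21 (red) left of LPS (dark blue) and the mean ± SD as a bar beside each group. HPGD and HPGDS lie higher in the LPS+LR21 libraries, LTA4H, ALOX5AP and PTGS1 lie lower there, and the square of LR3 lies nearest to the LPS values for HPGD, HPGDS, ALOX5AP and LTA4H.

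Ranked by mean FPKM in LPS+LR21, LTA4H (632 ± 209 FPKM) came first, followed by HPGD, ALOX5AP (68.0 ± 37.3 FPKM), HPGDS, PTGER4 (56.5 ± 19.8 FPKM), PTGS2 (11.0 ± 7.46 FPKM), PTGER2 (3.42 ± 4.84 FPKM), PTGES (1.83 ± 1.25 FPKM) and PTGS1 (0.0588 ± 0.0718 FPKM). In that group the ranges of ALOX5AP, HPGDS and PTGER4 overlapped, as did those of neighbours from PTGS2 to PTGES. In the LPS libraries the order was LTA4H (1463 ± 72.5 FPKM), ALOX5AP (133 ± 15.2 FPKM), PTGER4 (73.6 ± 1.9 FPKM), HPGD, PTGS2 (18 ± 4.27 FPKM), HPGDS, PTGER2 (3.47 ± 1.82 FPKM), PTGES (2.45 ± 1.05 FPKM) and PTGS1 (0.304 ± 0.0366 FPKM), and only PTGER2 and PTGES overlapped as neighbours. LTA4H was among the most abundant transcripts, with a lower mean FPKM in 99.7% of 15950 protein-coding genes in LPS+LR21 and 99.8% in LPS. HPGD stood above 99.3% of them in LPS+LR21 and above 95.3% in LPS, and HPGDS above 95.8% in LPS+LR21 and above 76.3% in LPS.

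The cyclooxygenase genes differed widely in level. PTGS2, the inducible cyclooxygenase (ENSGALG00010021038, chromosome 8, 10138984 to 10147004, plus strand), had 5.67, 19.5 and 7.81 FPKM in LR1_2, LR3 and LR4, against 16.2, 14.9 and 22.9 FPKM in LPS1, LPS2 and LPS3. LR1_2 and LR4 lay below the LPS libraries while LR3 lay within their range, so the groups overlapped. The log2 fold change was -0.80 ± 0.49 (SE, adjusted p = 0.641, edgeR's quasi-likelihood test), and without LR3 it was -1.56 and passed (adjusted p = 0.0167). PTGS2 also passed as lower with limma-voom and library quality weights (adjusted p = 0.0245), which called 9.43% of all genes.

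PTGS1, the constitutive cyclooxygenase (ENSGALG00010028372, chromosome 17, 9370346 to 9416687, plus strand), had the lowest mean of the 9 genes in both groups. Only in LR3 and LR4 was it close to the limit of detection. It had 33 counts in LR1_2, 8 in LR3 and 0 in LR4, against 71 in LPS1, 53 in LPS2 and 73 in LPS3. In LR4, a count of 0 allows up to 3 counts, or 0.0184 FPKM, which covers counting error only. The LPS+LR21 counts were all lower than the LPS counts, but the log2 fold change of -2.43 ± 1.44 (SE) did not pass (adjusted p = 0.615 by edgeR). PTGS1 lies over 3 protein-coding genes on the opposite strand, PDCL, RC3H2 and ZBTB26, which had 372 to 1126 counts in every library. Whether the counting used strand is unstated, so reads of PTGS1 and of these genes may not have been separated. Thrombocytes are the avian counterpart of platelets, which carry PTGS1 in mammals. The 11 thrombocyte markers tested all had fitted values below 0 (median -0.89). GP9 was too low to be tested. The 12 thrombocyte markers in the table, GP9 included, summed to 47.1 to 99.5 FPKM in LPS+LR21 and 118 to 179 FPKM in LPS. Most of that sum came from RGS18 and F13A1. RGS18 averaged 52.2 FPKM in LPS+LR21 and 110 FPKM in LPS, and F13A1 averaged 7.79 and 30.3 FPKM. GP9, GP5, GP1BB and ITGA2B were below 1 FPKM on average in both groups. The part of the thrombocyte markers in the PTGS1 difference was not tested.

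Downstream of the cyclooxygenases, HPGDS rose and PTGES did not pass. PTGES, the inducible prostaglandin E synthase (ENSGALG00010028488, chromosome 17, 6278337 to 6294168, minus strand), had 1.52, 3.20 and 0.768 FPKM in LR1_2, LR3 and LR4, against 3.67, 1.86 and 1.83 FPKM in LPS1, LPS2 and LPS3. The groups overlapped, and the log2 fold change of -0.49 ± 0.69 (SE) was smaller in size than its SE and did not pass (adjusted p = 0.903 by edgeR). HPGDS (ENSGALG00010005518, chromosome 4, 36743634 to 36772199, minus strand) had 106, 20.6 and 74.4 FPKM in LR1_2, LR3 and LR4, against 10.3, 5.01 and 6.58 FPKM in LPS1, LPS2 and LPS3. Every LPS+LR21 library exceeded every LPS library, with LR3 at 2.82 times the LPS mean and LR1_2 and LR4 together at 12.4 times. HPGDS rose by 3.03 ± 0.57 on the log2 scale (SE, adjusted p = 0.0435 by edgeR). SMARCAD1, which overlaps HPGDS on the opposite strand, had 709, 808 and 451 counts in LR1_2, LR3 and LR4, against 575, 485 and 422 in LPS1, LPS2 and LPS3. HPGDS itself had 26664, 4629 and 12815 counts in LR1_2, LR3 and LR4, against 2303, 1062 and 1621 in LPS1, LPS2 and LPS3. The counts of SMARCAD1 were thus nearer to those of HPGDS in the LPS libraries, and its part in them was not tested.

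HPGD, the catabolic enzyme (ENSGALG00010002632, chromosome 4, 43337645 to 43363828, minus strand), had 430, 171 and 433 FPKM in LR1_2, LR3 and LR4, against 69.8, 50.2 and 34.4 FPKM in LPS1, LPS2 and LPS3. The lowest LPS+LR21 value was thus above the highest LPS value. HPGD rose by 2.58 ± 0.43 on the log2 scale (SE, adjusted p = 0.0381 by edgeR). Both calls were lost when any library but LR3 was left out: omitting LPS1, LPS2, LPS3, LR1_2 or LR4 put the adjusted p of HPGD at 0.122 to 0.225 and that of HPGDS at 0.128 to 0.254, in fits that called no gene at all by edgeR's test although 1643 to 2764 genes had an unadjusted p under 0.05. Without LR3 both had an adjusted p of 0.00127, where 8.65% of genes were called. The fold changes kept their sign in these 6 fits, at 2.34 to 2.98 for HPGD and 2.44 to 3.57 for HPGDS.

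HPGD and HPGDS were higher in the LPS+LR21 libraries, least so in LR3, as was the sum of the epithelial markers. Within the LPS group HPGDS did not keep the order of that sum. Of the 28 epithelial markers tested, 11 rose and 17 did not pass, where 0.974% of all tested genes were called higher. All 28 had fitted values above 0 (median 2.32). Their summed level was 6.68 times as high in LPS+LR21 as in LPS, beside 6.70 times for HPGD and 9.20 times for HPGDS. FABP2 and APOA1 were the largest parts of that sum, with means of 1989 and 936 FPKM in LPS+LR21 and 229 and 191 FPKM in LPS. Taken singly, the 28 markers were fitted from 1.29 (CDH17) to 3.28 (MEP1A) on the log2 scale. Relative to the summed counts of those markers in the same library, HPGD had 43.2, 61.0 and 57.8 counts per 1000 in LR1_2, LR3 and LR4, against 52.5, 49.3 and 41.2 in LPS1, LPS2 and LPS3. On that scale the groups overlapped. HPGDS had 24.4, 16.7 and 22.6 counts per 1000 epithelial marker counts in LR1_2, LR3 and LR4, against 17.7, 11.2 and 17.9 in LPS1, LPS2 and LPS3, which overlapped too. With libraries scaled to the epithelial markers (chosen once the values were known), the log2 fold changes were 0.18 ± 0.65 for HPGD (adjusted p = 0.803) and 0.45 ± 0.61 for HPGDS (adjusted p = 0.509; SE, edgeR). That scaling also shifted the median of all genes to -2.38 and called 44.7% of them.

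Tuft cells and mast cells are known sources of prostaglandin D2 in mammals. The 11 tuft cell markers summed to 75.1 to 85.3 FPKM in LPS+LR21 and 55.6 to 69.1 FPKM in LPS, and none passed the test. SUCNR1 was the largest part of that sum in LR3. It had 4.60, 46.4 and 4.27 FPKM in LR1_2, LR3 and LR4. In LPS1, LPS2 and LPS3 it had 22.0, 18.3 and 31.9 FPKM. Of these 11 markers 7 were fitted below 0 and 4 above (median -0.43). They ran from -1.65 for GFI1B, -1.55 for CHAT, -1.34 for DCLK1 and -1.05 for PLCB2 to 1.36 for TRPM5 and 1.57 for SOX9 on the log2 scale. GFI1B, DCLK1 and GNAT3 were below 1 FPKM on average in both groups. TRPM5, a tuft cell ion channel, had 42.0, 6.64 and 33.5 FPKM in LR1_2, LR3 and LR4, against 12.1, 8.95 and 7.38 FPKM in LPS1, LPS2 and LPS3, and it was chosen for mention with its values known. Of the 7 mast cell and basophil markers none passed, and KIT, HDC, GATA2, SLC18A2 and IL1RL1 were below 1 FPKM on average in both groups.

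**Figure D2:**
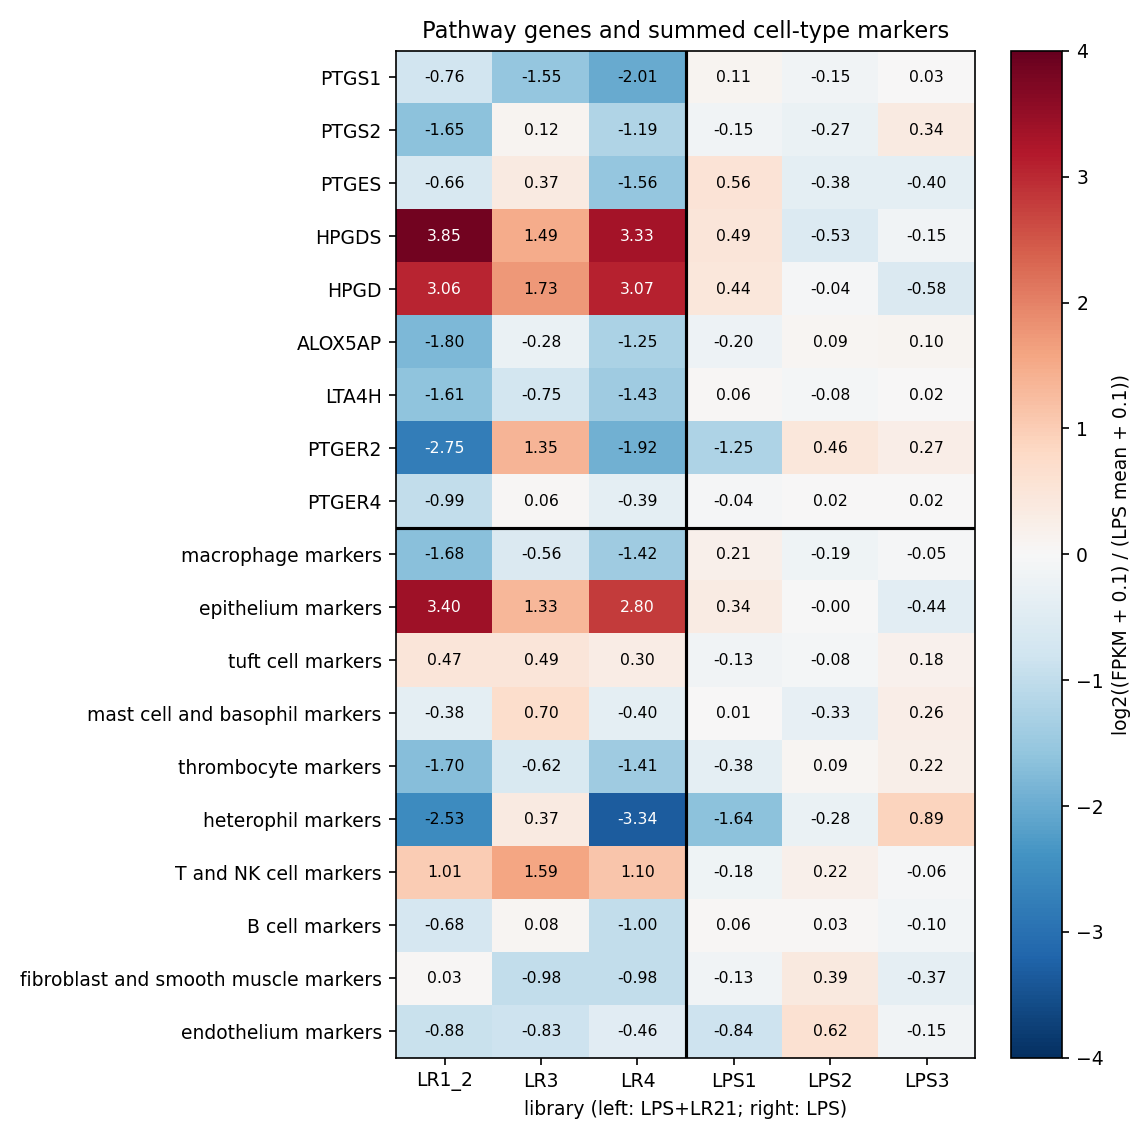
Log2 of each library's FPKM over the LPS mean, with 0.1 added to both, for the 9 genes (above the line) and for the summed FPKM of 10 marker lists (below it), with LPS+LR21 libraries on the left and LPS libraries on the right. HPGD and HPGDS are raised in the LPS+LR21 libraries, least in LR3, as is the epithelial row (3.40, 1.33 and 2.80 in LR1_2, LR3 and LR4). In LPS1, LPS2 and LPS3 HPGDS (0.49, -0.53 and -0.15) does not follow the epithelial row (0.34, -0.0010 and -0.44). In the LPS+LR21 libraries LTA4H and ALOX5AP follow the macrophage row (-1.68, -0.56 and -1.42). The thrombocyte row, a sum mostly of RGS18 and F13A1, lies beside that row (-1.70, -0.62 and -1.41). In LPS1, LPS2 and LPS3 ALOX5AP (-0.20, 0.086 and 0.098) does not follow the macrophage row (0.21, -0.19 and -0.053).

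LTA4H and ALOX5AP were lower in LPS+LR21 without passing. LTA4H (ENSGALG00010011903, chromosome 1, 45746353 to 45761440, minus strand) had 481, 870.3 and 544 FPKM in LR1_2, LR3 and LR4, against 1525, 1383 and 1482 FPKM in LPS1, LPS2 and LPS3. The groups did not overlap, and the LPS libraries lay close together. Its log2 fold change was -1.32 ± 0.39 (SE, adjusted p = 0.158 by edgeR). LTA4H passed as lower without LR3 (log2 fold change -1.62, adjusted p = 0.00591), with DESeq2 (adjusted p = 0.00735, 6.56% of genes called), with limma-voom and library quality weights (adjusted p = 0.00144) and among genes of at least 5 FPKM (adjusted p = 0.0471, 8.31% called).

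ALOX5AP, the 5-lipoxygenase activating protein (ENSGALG00010006942, chromosome 1, 174921125 to 174930847, minus strand), had 38.3, 109.9 and 55.9 FPKM in LR1_2, LR3 and LR4, against 116, 141 and 143 FPKM in LPS1, LPS2 and LPS3. LR3 lay just below LPS1, so the groups were apart by a small margin. The log2 fold change was -1.07 ± 0.43 (SE, adjusted p = 0.342), and without LR3 it was -1.64 and passed (adjusted p = 0.00664 by edgeR), as it did with limma-voom (-1.56).

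Relative to the macrophage markers, LTA4H and ALOX5AP overlapped between the groups. LTA4H had 95.6, 79.8 and 89.4 counts per 1000 macrophage marker counts in LR1_2, LR3 and LR4, against 83.9, 95.6 and 95.6 in LPS1, LPS2 and LPS3. ALOX5AP had 4.99, 6.61 and 6.02 counts per 1000 in LR1_2, LR3 and LR4, against 4.17, 6.41 and 6.03 in LPS1, LPS2 and LPS3. The ratio of group means, LPS+LR21 over LPS, was 0.963 for LTA4H and 1.06 for ALOX5AP on this scale, and 0.432 and 0.511 in FPKM. Of the 24 macrophage markers tested, 1 fell, all 24 had fitted values below 0 (median -1.36), and 18 did not overlap between groups. Of the 20745 genes, 0.0819% fell, 56.5% were fitted below 0, and 7.10% had every LPS+LR21 library under every LPS library. CD74 alone gave 353352, 669307 and 342204 of the 746091, 1449525 and 621033 macrophage marker counts in LR1_2, LR3 and LR4. It gave 982754, 739087 and 1076399 of 2403416, 1816586 and 2263580 in LPS1, LPS2 and LPS3. Scaling without CD74 was not tested. Heterophils, the avian counterpart of neutrophils, also carry leukotriene genes. The 9 heterophil markers in the table summed to 351 to 4572 FPKM in LPS+LR21 and 1140 to 6568 FPKM in LPS. AVD was the largest part of that sum, with means of 1403 FPKM in LPS+LR21 and 2689 FPKM in LPS. None of the 8 tested passed, and 7 were fitted below 0 (median -1.18). For 2 of the 8 every LPS+LR21 library lay under every LPS library. The part of the heterophil markers in the LTA4H and ALOX5AP differences was not tested. Nor was that of the thrombocyte markers, whose sum was also lower in LPS+LR21.

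Neither receptor for prostaglandin E2 passed the test. PTGER4 (ENSGALG00010014350, chromosome Z, 13372871 to 13383612, plus strand) had 36.9, 76.6 and 56.0 FPKM in LR1_2, LR3 and LR4, against 71.4, 74.5 and 74.9 FPKM in LPS1, LPS2 and LPS3. The groups overlapped through LR3, and the log2 fold change was -0.50 ± 0.34 (SE, adjusted p = 0.698 by edgeR). Relative to macrophage markers its order turned: it had 9.71, 9.28 and 12.2 counts per 1000 macrophage marker counts in LR1_2, LR3 and LR4, against 5.20, 6.81 and 6.39 in LPS1, LPS2 and LPS3. All 3 LPS+LR21 libraries lay above all 3 LPS libraries on that scale, at 1.69 times the mean. The same held for HPGD and HPGDS, at 18.1 and 26.4 times. The share of all genes set apart on that scale was not computed. With libraries scaled to the macrophage markers the log2 fold change of PTGER4 was 0.76 ± 0.39 (SE), which did not pass (adjusted p = 0.195 by edgeR). That fit called 20.0% of genes, and its median over all genes was 1.3, above the value of PTGER4.

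PTGER2 (ENSGALG00010017954, chromosome 5, 57886644 to 57890428, plus strand) varied widely among libraries of a group. It had 0.429, 9.0 and 0.841 FPKM in LR1_2, LR3 and LR4, against 1.41, 4.81 and 4.19 FPKM in LPS1, LPS2 and LPS3. LR3 held the highest value and LR1_2 the lowest, so the log2 fold change of -0.04 ± 1.03 (SE) gave no direction. Without LR3 it was -2.61 (adjusted p = 0.0518 by edgeR), and it lay above 0 without LR1_2 (0.52), LR4 (0.48), LPS2 (0.23) or LPS3 (0.16). The prostaglandin D2 receptor gene PTGDR lies 3318 bases upstream on the same strand, and it had 4.50, 14.7 and 1.88 FPKM in LR1_2, LR3 and LR4, against 6.14, 24.3 and 20.6 FPKM in LPS1, LPS2 and LPS3. Both neighbours were low in LR1_2, LR4 and LPS1 and high in LR3, LPS2 and LPS3.

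**Figure D3:**
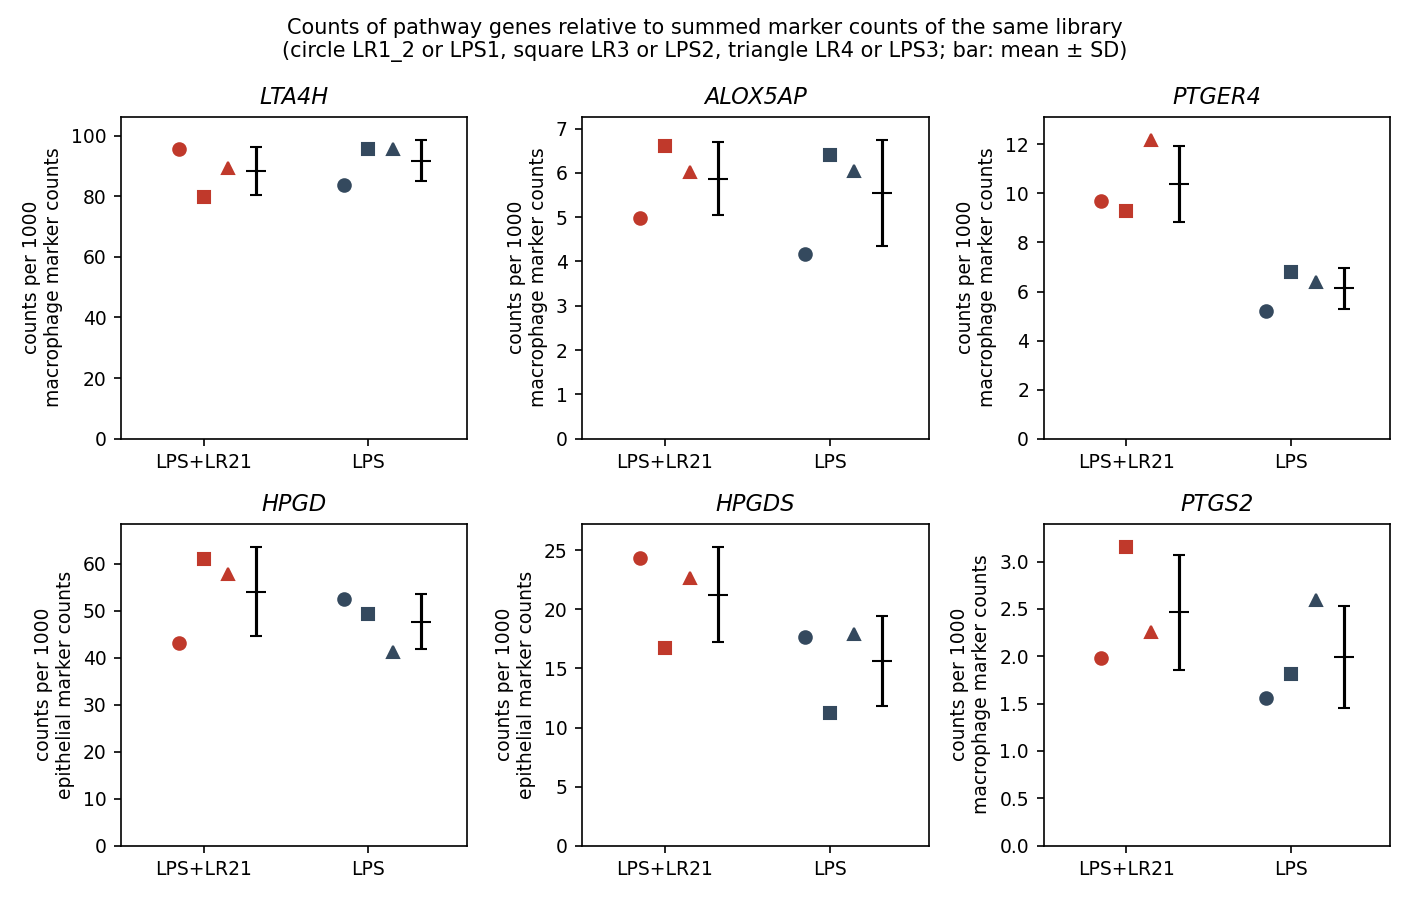
Counts of LTA4H, ALOX5AP, PTGER4 and PTGS2 per 1000 macrophage marker counts, and of HPGD and HPGDS per 1000 epithelial marker counts, in each library, with LPS+LR21 left of LPS and bars for the mean ± SD. On the scales drawn, the groups overlap for each gene but PTGER4, whose LPS+LR21 libraries (9.28 to 12.2) lie above the LPS libraries (5.20 to 6.81). HPGD and HPGDS also lie above on the macrophage scale, which is not drawn for them. The share of all genes set apart on that scale was not computed. In the fit scaled to macrophage markers the median log2 fold change over all genes was 1.3, above the 0.76 of PTGER4.

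Ratios of 2 genes within a library need no scaling between libraries. The FPKM ratio of PTGS2, which starts prostaglandin synthesis, to HPGD, which ends prostaglandin action, was 0.0132, 0.114 and 0.0181 in LR1_2, LR3 and LR4, against 0.232, 0.297 and 0.665 in LPS1, LPS2 and LPS3. The ratio between the synthases, PTGES over HPGDS, was 0.0143, 0.155 and 0.0103 in LR1_2, LR3 and LR4, against 0.355, 0.371 and 0.278 in LPS1, LPS2 and LPS3. Both ratios were lower in every LPS+LR21 library than in any LPS library, by -3.57 and -3.55 on the log2 scale on average. These are descriptions with no test. Between the groups, the epithelial sum given above was higher in LPS+LR21 and the macrophage sum was lower. Within the LPS group both sums were highest in LPS1. The part of these sums in the ratios was not tested. PTGS2 exceeded PTGS1 by 40.8 times in LR1_2 and 520 times in LR3, against 48.2 times in LPS1, 56.6 in LPS2 and 73.3 in LPS3, with PTGS1 at 0 in LR4. The ratio of PTGER4 to PTGER2 was 8.50 to 86.0 in LPS+LR21 and 15.5 to 50.8 in LPS, which overlapped.

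**Figure D4:**
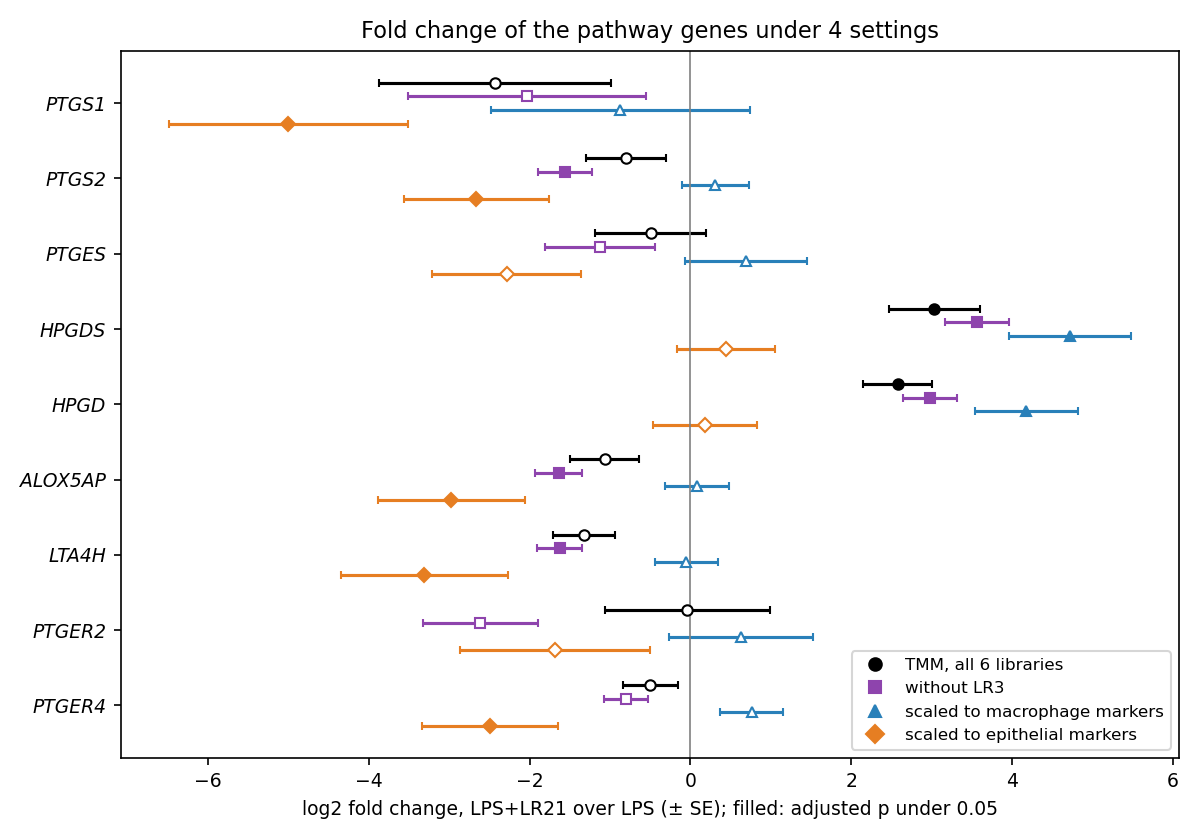
Log2 fold change of LPS+LR21 over LPS with its SE for the 9 genes in 4 edgeR fits, where filled symbols have an adjusted p under 0.05. In the fits drawn, HPGD and HPGDS stay above 0 and are open symbols only when scaled to epithelial markers. Of the fits with a library left out, only that without LR3 is drawn. Both calls were lost when any other library was left out. LTA4H and ALOX5AP sit near 0 (-0.055 and 0.085) when scaled to macrophage markers.

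The remaining genes of the pathway were described from 4 lists, of which 1 member passed. Among 17 tested genes of arachidonate release none passed, with 8 fitted above 0 and 9 below (median -0.02). PLA2G2E, a secreted phospholipase A2, was the most abundant, with 1161 ± 778 FPKM in LPS+LR21 and 254 ± 110 FPKM in LPS (log2 fold change 2.03, adjusted p = 0.147). The cytosolic phospholipase PLA2G4F had 4.48 ± 1.53 FPKM in LPS+LR21 and 0.758 ± 0.350 FPKM in LPS (adjusted p = 0.0616), and the secreted PLA2G12B had 10.7 ± 8.44 FPKM in LPS+LR21 and 1.19 ± 0.708 FPKM in LPS (adjusted p = 0.147). PLA2G5 had 0.824 to 2.06 FPKM in LPS+LR21 and 0 to 0.150 FPKM in LPS (adjusted p = 0.284). PLA2G4A, the phospholipase that classically feeds eicosanoid synthesis, was picked for mention with its values known, and had 5.19, 16.6 and 9.74 FPKM in LR1_2, LR3 and LR4, against 17.6, 23.5 and 16.9 FPKM in LPS1, LPS2 and LPS3 (adjusted p = 0.406, edgeR throughout).

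Among 16 other genes of prostanoid synthesis, transport and breakdown none passed (median 0.21). The carbonyl reductase CBR3 had 99.3 ± 41.8 FPKM in LPS+LR21 and 26.2 ± 4.65 FPKM in LPS (log2 fold change 1.76, adjusted p = 0.0640). ZADH2, a prostaglandin reductase, CBR4, a further carbonyl reductase, and PTGES2, a membrane-associated prostaglandin E synthase, did not pass, at 1.25, 1.02 and 0.84 on the log2 scale (adjusted p = 0.251, 0.266 and 0.258). AKR1B1, an aldo-keto reductase able to make prostaglandin F2 alpha, had the highest mean of the list in LPS but stood below CBR3 in LPS+LR21, with 90.1 ± 64.3 FPKM in LPS+LR21 and 115 ± 30.8 FPKM in LPS (adjusted p = 0.879).

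Among 15 other genes of lipoxygenase and leukotriene metabolism 1 rose and none fell, and 13 had fitted values above 0 (median 0.99, also with LTC4S at its bound). Over all tested genes 0.974% were called higher, and 56.5% were fitted below 0. The list was broad, with DICER1, MAPKAPK2, CYP4V2, EPHX1 and EPHX2 among its members. The riser was EPHX1, a microsomal epoxide hydrolase, with 56.3, 14.7 and 41.5 FPKM in LR1_2, LR3 and LR4, against 5.81, 5.00 and 4.66 FPKM in LPS1, LPS2 and LPS3 (log2 fold change 2.70 ± 0.45 SE, adjusted p = 0.0381 by edgeR). Its libraries had the order of the epithelial markers. DPEP1, a dipeptidase that cleaves leukotriene D4 and is also a brush-border enzyme, had 486 ± 209 FPKM in LPS+LR21 and 89.6 ± 57.2 FPKM in LPS (adjusted p = 0.0748). CYP4V2, a fatty acid hydroxylase, and MGST1, a microsomal glutathione transferase, did not pass either, at 1.41 and 1.01 on the log2 scale. COTL1, an actin-binding partner of 5-lipoxygenase, had the highest mean of the list in LPS but stood below DPEP1 in LPS+LR21, with 291 ± 65.5 FPKM in LPS+LR21 and 403 ± 119 FPKM in LPS. LTC4S, the leukotriene C4 synthase, was picked for mention with its values known, and had 23, 31 and 8 counts in LR1_2, LR3 and LR4 and 0 counts in all 3 LPS libraries, at least 6.95-fold higher against a floor of 3 counts per library (adjusted p = 0.189).

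None of the other 9 eicosanoid receptor genes passed, and 8 of them were fitted below 0 (median -0.83), as were 56.5% of all tested genes. GPR17, PTGER3 and PTGFR were below 1 FPKM on average in both groups. CMKLR1, a receptor for the chemoattractant chemerin that in mammals also binds a resolvin, had 5.34, 17.2 and 8.12 FPKM in LR1_2, LR3 and LR4, against 25.2, 22.9 and 24.9 FPKM in LPS1, LPS2 and LPS3 (log2 fold change -1.35, adjusted p = 0.235). The cysteinyl leukotriene receptor CYSLTR1 had 2.04 ± 0.562 FPKM in LPS+LR21 and 3.31 ± 1.73 FPKM in LPS, and GPR18 and GPR17 had log2 fold changes of -0.54 and -1.38. Downstream of PTGER2 and PTGER4, none of 32 tested genes of cyclic AMP signalling and response passed (median -0.26, 22 below 0). The nuclear receptors NR4A3 and NR4A2, which are induced by cyclic AMP, stood at -1.62 and -1.69 on the log2 scale (adjusted p = 0.102 and 0.189), and the kinase SIK1 had -0.99 (adjusted p = 0.175). The growth factor EREG had 118 ± 86.1 FPKM in LPS+LR21 and 24.4 ± 6.84 FPKM in LPS (adjusted p = 0.148), and the phosphatase DUSP1 had 531 ± 117 FPKM in LPS+LR21 and 809.8 ± 129 FPKM in LPS (adjusted p = 0.508, edgeR).

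**Figure D5:**
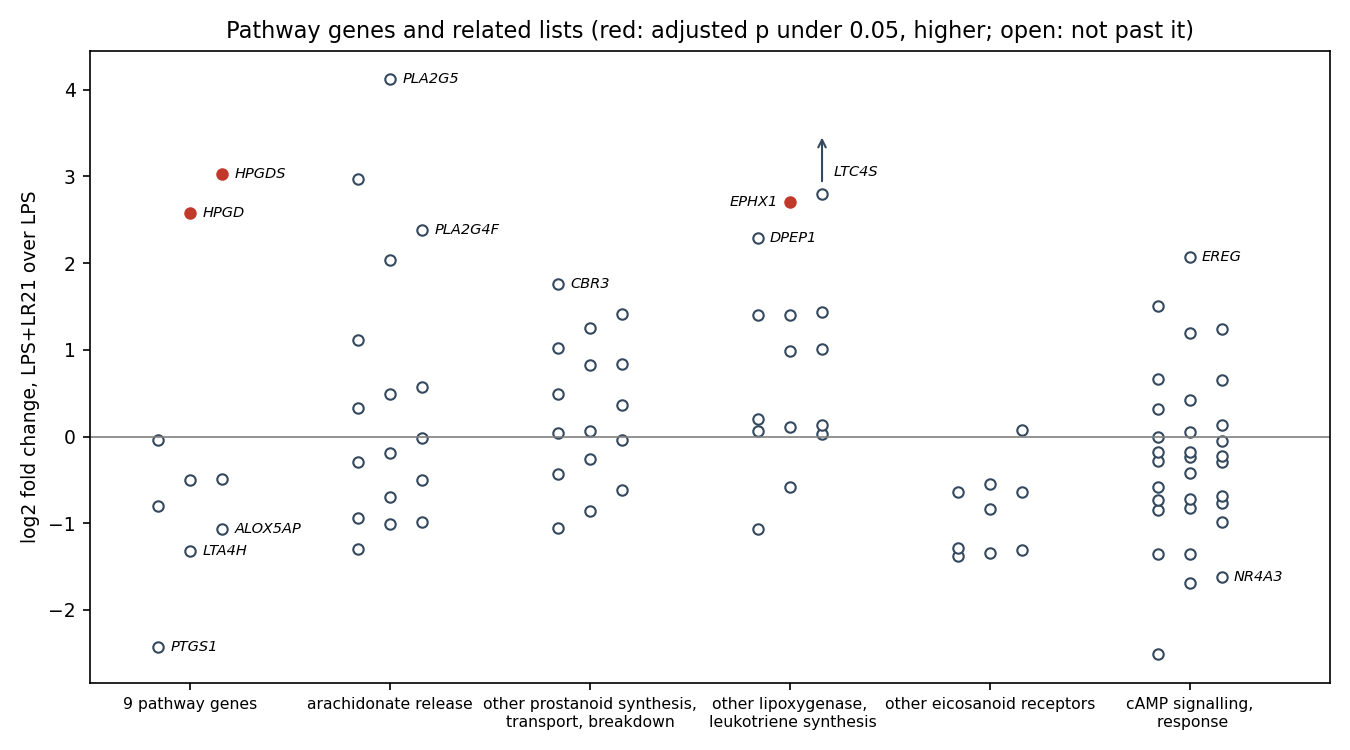
Log2 fold change of LPS+LR21 over LPS for the 9 genes and for the tested members of 5 related lists, with red for an adjusted p under 0.05 and open circles for the rest. HPGD, HPGDS and EPHX1 are the red points, LTC4S is drawn at its lower bound with an arrow, and 8 of the 9 other receptor genes lie below 0.

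The genes nearest in pattern were sought among 8122 protein-coding genes with a mean of at least 1 FPKM, by the root mean square difference of centred log2(FPKM + 0.1) values over the 6 libraries, where 0 is an identical pattern. For HPGDS they were MALL, a membrane raft protein gene, at 0.11 and PDZK1IP1 at 0.16. MALL had 99.1, 21.3 and 70.1 FPKM in LR1_2, LR3 and LR4, against 10.1, 4.36 and 7.36 FPKM in LPS1, LPS2 and LPS3. For HPGD they were GDPD4 and KCNE3, both at 0.14. For LTA4H they were the lysosomal protease gene CTSZ at 0.062 and the ectonucleotidase gene ENTPD2 at 0.069. CTSZ had 513, 943 and 556 FPKM in LR1_2, LR3 and LR4, against 1680.4, 1541 and 1463 FPKM in LPS1, LPS2 and LPS3. ST8SIA4 at 0.071 and SH3KBP1 at 0.10 were nearest to ALOX5AP, GINM1 and PQLC2 at 0.092 and 0.094 to PTGS2, and ARMC8 at 0.075 and DUSP5 at 0.080 to PTGER4. PTGES had CCDC94 at 0.22 and CKLF at 0.23, and PTGER2 had MRGPRH at 0.19 and CAPN2 at 0.28. The share of the compared genes within 1 was 6.81% for PTGER2, 9.42% for HPGDS and 14.8% for HPGD. It was 63.6% for ALOX5AP, 64.5% for PTGS2, 65.2% for LTA4H, 67.3% for PTGES and 81.9% for PTGER4, so a close pattern was common for these 5 genes. The marker sums given above also differed across the same 6 libraries, and their part in these patterns was not tested.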

How the data were processed

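The authors deposited, per the file headers, raw counts and FPKM by gene for every library. Tools listed in the submitters' processing notes are StringTie 1.3.4d, HISAT2 2.0.4, cutadapt 1.9 and edgeR. The build and strand setting are not given in the sources used here; positions are the table's own. The 3 FPKM columns of LPS+LR21 were not used. Their names match no single sample, which also holds for the count columns of that group. FPKM in the text was recomputed from the deposited counts, column totals and gene lengths implied by the deposited LPS values. It matched those LPS values within 4.77% for 9889 genes of at least 100 counts in each LPS library. Since the lengths came from the same values, this match is no independent check. The recomputed LPS+LR21 values were not compared with deposited ones. The LPS+LR21 count columns were used as 3 replicates without further identity. Since no label ties a library to its own birds, p-values cover only the spread among these libraries, possibly technical.

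Counts were tested with edgeR 4.0.16 (R 4.3.3) by glmQLFit and glmQLFTest, after filterByExpr (20745 genes) and TMM scaling; p-values are two-sided and Benjamini-Hochberg adjusted over all tested genes, with a threshold of 0.05. SE is the log2 fold change over the square root of F. Alternatives used DESeq2 1.42.0, limma 3.58.1, other filters and scalings, and each library left out. Named genes in each list were those past the threshold, the members of smallest p up to 4, and the most abundant; for each of the 9 genes with at least 10 counts in all libraries, the 2 nearest patterns were named. The members and lists were chosen with earlier results of these data known.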

Additional observations from a re-analysis of the deposited data

How the results depend on the processing

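No paired analysis was possible because the LPS+LR21 columns carry no replicate numbers of the sample titles. Genes called higher numbered 202 and called lower 17. These were 1002 and 359 with DESeq2, 341 and 101 at a mean of at least 5 FPKM, 1060 and 896 with quality-weighted limma-voom, 394 and 47 by limma-trend on log2(FPKM + 0.1), and 34 lower on log2(FPKM + 1). They were 4138 and 4 scaled to macrophage markers, and 8 and 9263 scaled to epithelial markers, a setting added after seeing the data. Leaving out 1 library gave 0 to 1086 higher and 0 to 859 lower. Of the 9 genes, 2 were called higher, against 0 scaled to epithelial markers and 0 to 2 with a library left out. None of the 9 was called lower in the main edgeR fit (TMM scaling, no library left out). Those called lower numbered 1 with DESeq2 and 3 with limma-voom. In the other edgeR fits they numbered 1 at a mean of at least 5 FPKM, 5 scaled to epithelial markers and 0 to 3 with a library left out. An unadjusted p under 0.05 was found for 4 of the 9 (HPGD and HPGDS, higher, and ALOX5AP and LTA4H, lower) and for 12.1% of all genes.

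Scaled to epithelial markers, log2 fold changes were -5.00 for PTGS1, -2.66 for PTGS2, -2.98 for ALOX5AP, -3.31 for LTA4H and -2.49 for PTGER4, all now called. They were 0.45 for HPGDS and 0.18 for HPGD, no longer called. That fit called 44.7% of all genes, and its median over all genes was -2.38, near the values of PTGS2 and PTGER4. Scaled to macrophage markers the sign turned for PTGS2 (0.31), PTGES (0.69), ALOX5AP (0.085), PTGER2 (0.63) and PTGER4 (0.76), none called. LTA4H was newly called with DESeq2 (-1.29), at a mean of at least 5 FPKM (-1.34) and with limma-voom (-1.61), and limma-voom also called PTGS2 (-1.41) and ALOX5AP (-1.56). With a library left out the ranges were -3.93 to -1.73 for PTGS1, -1.56 to -0.47 for PTGS2, -1.13 to -0.0090 for PTGES, 2.44 to 3.57 for HPGDS, 2.34 to 2.98 for HPGD, -1.64 to -0.76 for ALOX5AP, -1.62 to -1.07 for LTA4H, -2.61 to 0.52 for PTGER2 and -0.80 to -0.26 for PTGER4. The log2 ratio of PTGER4 to PTGER2 differed by -0.020 (without LR1_2) to 1.65 between groups. These scalings and omissions show how the values depend on the setting, and the cause of the differences was not tested. PTGS1, at 0 to 73 counts, is limited by depth.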
